A study of Homo sapiens with 6 samples.

Results

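The enzymes that cut and crosslink collagen outside the cell were examined in the human ovarian carcinoma line SKOV3 with and without a hairpin against JUP. JUP encodes plakoglobin, which links cadherins of cell junctions to the cytoskeleton. The set holds 10 of the 60664 genes in the deposited table. It comprises the tolloid proteases BMP1 and TLL1, their enhancers PCOLCE and PCOLCE2, the procollagen N-protease ADAMTS2, and the lysyl oxidases LOX, LOXL1, LOXL2, LOXL3 and LOXL4. Members were taken by gene symbol through their Ensembl ID. The set was chosen by symbol, but with the fold changes of shJUP over shNC from an earlier reading of these data known, TLL1 among them. Values in that contrast are therefore given to describe the members, and p-values from the fit across all genes support nothing beyond that.

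RNA sequencing covered 3 cultures with a short hairpin RNA against JUP (shJUP 1 to 3, labelled JUP knockdown) and 3 with a control hairpin (shNC 1 to 3, labelled WT). All 6 are SKOV3, and the replicates are described as independent biological replicates. The sources used here give neither the hairpin sequences and their number nor any selection of clones. Off-target effects of the hairpin and effects of reduced JUP cannot be told apart. Each library held between 17456121 and 19279514 estimated counts. The epithelial keratin gene KRT8 (494 to 839 CPM) and PAX8, a factor of Müllerian epithelium (253 to 393 CPM), were well expressed in every library. ERBB2 stood at 2320 to 6907 CPM and CD24 at 203 to 448 CPM. KRT8 was higher in every shJUP library (611 to 839 CPM) than in every shNC library (494 to 563 CPM). Of the 8 such markers tested, 5 had a log2 fold change above 0 and 3 below (median 0.14), and edgeR called 0. DESeq2 with the library number as a block called ERBB2 and KRT19 lower in shJUP, in a fit that called 2.91% of genes lower. EPCAM (at most 4.62 CPM), MSLN (at most 0.907 CPM) and MUC16 (at most 0.640 CPM) were low or near 0. Levels are CPM, that is counts scaled to the TMM-adjusted library size.

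Fibrillar collagens are secreted as procollagens with propeptides at both ends. ADAMTS2 removes the N-propeptide of some of them, and BMP1 and the related tolloid-like proteases remove the C-propeptide, a step that PCOLCE and PCOLCE2 enhance. Lysyl oxidases are copper enzymes that oxidize lysine side chains of collagen and elastin, which then form crosslinks. BMP1 also processes the LOX proenzyme, and LOX and LOXL2 are studied in tumours for their part in matrix stiffening and spread.

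TLL1, LOX and BMP1 were lower in every shJUP library than in every shNC library, and PCOLCE2 was not. The upstream sequences of TLL1, LOX and PCOLCE2 are shown side by side as examples, and that of BMP1 is not shown. Of the 10 members 8 matched the RefSeq promoter table (GRCh38.p14). Each window runs from 250 bases before to 50 bases after an annotated start, 5′ to 3′ on the gene's strand. They are TLL1 at chr4:165872987-165873286 (plus strand), LOX at chr5:122078210-122078509 (minus strand, the window nearest the principal GENCODE transcript among 3) and PCOLCE2 at chr3:142889034-142889333 (minus strand). Capitals mark matches to the motifs searched.
TLL1: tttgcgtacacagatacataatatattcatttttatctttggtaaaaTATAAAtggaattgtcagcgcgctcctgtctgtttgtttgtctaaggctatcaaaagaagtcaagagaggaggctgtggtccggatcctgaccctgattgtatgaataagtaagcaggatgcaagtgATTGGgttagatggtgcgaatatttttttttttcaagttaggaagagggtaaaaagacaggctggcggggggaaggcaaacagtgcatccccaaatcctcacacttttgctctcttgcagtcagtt
LOX: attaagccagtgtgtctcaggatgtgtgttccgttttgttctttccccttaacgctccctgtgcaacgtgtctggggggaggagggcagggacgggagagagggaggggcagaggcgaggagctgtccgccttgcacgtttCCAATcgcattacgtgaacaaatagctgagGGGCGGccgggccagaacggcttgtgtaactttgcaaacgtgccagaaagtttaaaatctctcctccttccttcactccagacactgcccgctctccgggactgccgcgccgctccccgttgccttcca
PCOLCE2: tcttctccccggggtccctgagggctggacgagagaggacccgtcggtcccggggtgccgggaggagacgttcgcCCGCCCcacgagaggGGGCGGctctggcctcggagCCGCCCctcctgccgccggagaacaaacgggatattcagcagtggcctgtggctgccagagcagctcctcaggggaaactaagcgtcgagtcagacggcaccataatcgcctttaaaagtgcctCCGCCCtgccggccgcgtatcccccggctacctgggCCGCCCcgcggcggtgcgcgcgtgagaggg
The motifs, searched on both strands, were the TATA box (TATAAA), the CCAAT box (CCAAT), the GC box (GGGCGG), the STAT pattern (TTCNNNGAA), the TCF/LEF pattern (CTTTGAT) and the AP-1 pattern (TGANTCA). None of the matches overlapped another motif. Positions here are those of the first base relative to the annotated start. TLL1 held 1 match to the TATA box letters, at -203, and 1 to the CCAAT box, at -76. LOX held 1 match to the CCAAT box, at -109, and 1 to the GC box, at -79. PCOLCE2 held 5 matches to the GC box, the first at -175. The letters of the STAT, TCF/LEF and AP-1 patterns were in none of the 3 windows. Of the 35116 windows in the table, 11.5% held the TATA box, 34.6% the CCAAT box, 45.0% the GC box, 7.7% the STAT, 2.6% the TCF/LEF and 7.7% the AP-1 pattern. GC content was 41.3% for TLL1, 58.0% for LOX and 70.0% for PCOLCE2, against a median of 58.7% over all windows. A match describes the letters of the window and is not a binding site.

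The knockdown itself was uneven. JUP stood at 39.9, 93.6 and 24.6 CPM in shJUP 1 to 3, against 104, 133 and 101 CPM in shNC 1 to 3. Each shJUP library lay below each control, but the fraction of the control mean that remained was 83.0% in shJUP 2, far above 35.4% in shJUP 1 and 21.9% in shJUP 3. Its edgeR log2 fold change was -1.10 (SE 0.44, adjusted p = 0.471), and with a block for the library number DESeq2 called it lower (adjusted p = 0.0481).

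Both tolloid proteases of the set were lower in shJUP. TLL1, the tolloid-like metalloprotease, had 107, 134 and 79 counts in shJUP 1 to 3, against 482, 289 and 505 counts in shNC 1 to 3. On the scaled level this was 5.97, 7.15 and 4.19 CPM in shJUP and 26.6, 15.4 and 27.5 CPM in shNC. The groups did not overlap, and shNC 2, the lowest control, was still above the highest shJUP library. The mean ± SD was 5.77 ± 1.5 CPM over the 3 shJUP and 23.2 ± 6.8 CPM over the 3 shNC libraries, a log2 fold change of -2.0 (SE 0.29).

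BMP1, the main procollagen C-protease, was lower with a smaller difference and a narrower spread. It stood at 68.0, 76.3 and 63.7 CPM in shJUP 1 to 3, against 133, 114 and 118 CPM in shNC 1 to 3. Between 52.3% and 62.6% of the control mean remained in the shJUP libraries, including shJUP 2, in which JUP was highest. Its mean ± SD of 69.3 ± 6.4 CPM over the 3 shJUP and 122 ± 10 CPM over the 3 shNC libraries gave a log2 fold change of -0.81 (SE 0.12). In a bulk sample, fewer cells that express a gene and less RNA per cell cannot be told apart.

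Of the 8 members tested, the edgeR quasi-likelihood test called 0 after adjustment over 15867 genes, where it called 0% of all genes. TLL1 and BMP1 had the same adjusted p of 0.324 in that edgeR test. At an unadjusted p under 0.05 the edgeR test held 3 of the 8 members (BMP1, TLL1 and LOX), against 10% of all genes tested. DESeq2 called TLL1 (adjusted p = 2.27e-07) and BMP1 (adjusted p = 2.94e-05) lower, in a fit that called 0.524% of genes lower. With the library number as a block DESeq2 again called the same 2, TLL1 (adjusted p = 2.69e-07) and BMP1 (adjusted p = 1.92e-06), where 2.91% of all genes were called lower. In edgeR the block left both short of the threshold (adjusted p = 0.0852 for TLL1 and 0.0743 for BMP1) and called 0.0063% of all genes lower. Without the filter on low counts edgeR called TLL1 alone of the members (adjusted p = 0.0333), among 0.0158% of all genes. Without both number-2 libraries edgeR called BMP1, TLL1 and LOX lower (adjusted p = 0.0488, 0.0415 and 0.0415), where it called 0.189% of all genes lower. DESeq2 on the same 4 libraries added LOXL2 (adjusted p = 0.0168), with 2.43% of all genes called lower.

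**Figure D1:**
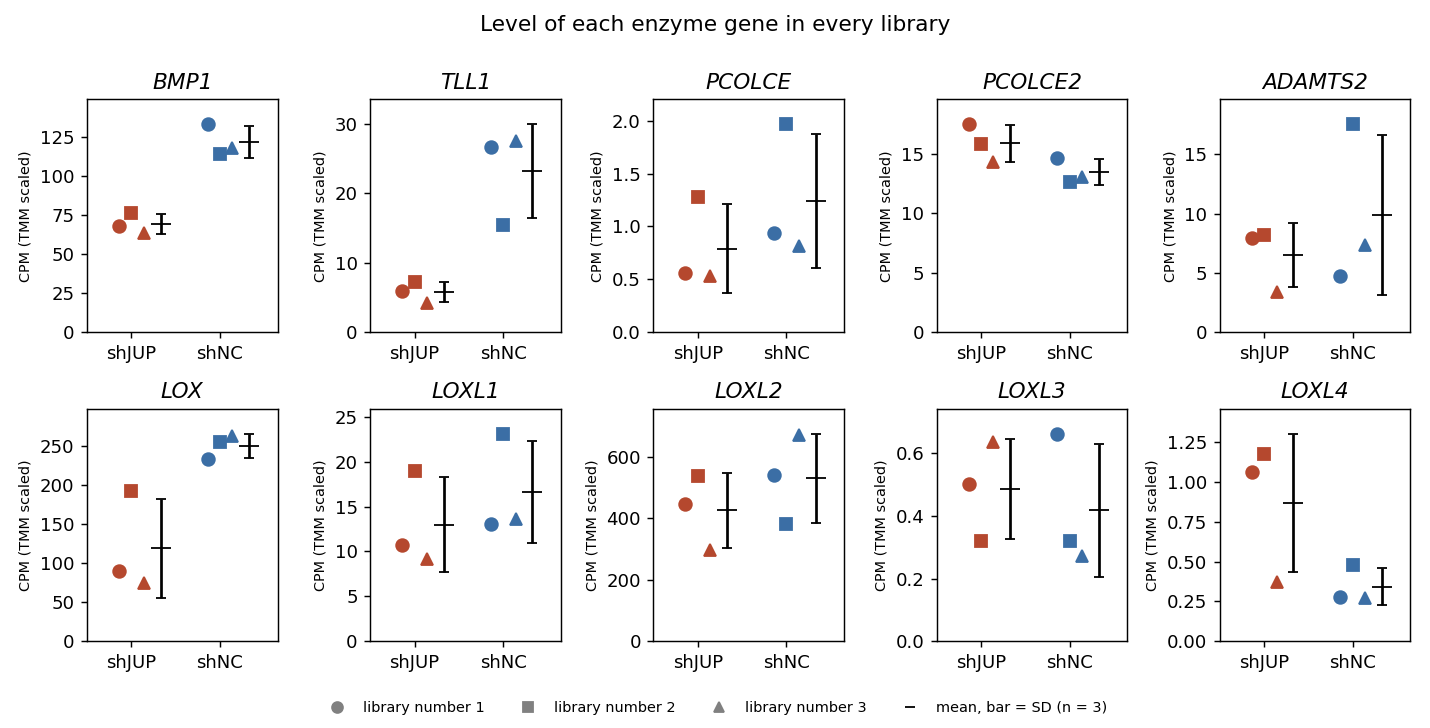
Level of each of the 10 enzyme genes in every library, in CPM after TMM scaling on linear axes that start at 0, with shJUP left of shNC, symbols for the library number, and the mean with its SD beside them. BMP1, TLL1 and LOX show no overlap between groups, whereas PCOLCE and LOXL1 are highest in the number-2 library of each group.

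Of the 2 enhancers, PCOLCE2 was the more abundant per length in every library. PCOLCE2 stood at 17.5, 15.9 and 14.3 CPM in shJUP 1 to 3, against 14.7, 12.7 and 13.1 CPM in shNC 1 to 3. Its shJUP library was the higher of the pair for every number, but shJUP 3 lay below shNC 1, so the groups overlapped slightly. For number 3 the ratio was 1.09, with a 95% counting interval (0.916 to 1.31) that reached below 1. The log2 fold change was 0.24 (SE 0.14, edgeR adjusted p = 0.612), with a mean ± SD of 15.9 ± 1.6 CPM over the 3 shJUP and 13.5 ± 1.1 CPM over the 3 shNC libraries. PCOLCE had only 10, 24 and 10 counts in shJUP 1 to 3, against 17, 37 and 15 counts in shNC 1 to 3. The number-2 library was the highest of its group in each case, and the 95% counting interval of the ratio within a number reached from below to above 1 for all 3 numbers. The log2 fold change of PCOLCE was -0.65 (SE 0.52). PCOLCE2 made up 84.5% to 96.4% of the enhancer transcripts per length over the 6 libraries.

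ADAMTS2, the procollagen N-protease, varied more within groups than between them. It stood at 7.92, 8.16 and 3.35 CPM in shJUP 1 to 3, against 4.70, 17.5 and 7.35 CPM in shNC 1 to 3. The control shNC 2 was the highest of the 6 and shNC 1 was below shJUP 1 and 2. The log2 fold change was -0.61 (SE 0.53, edgeR adjusted p = 0.715) and became 0.10 without shNC 2. Within numbers the ratio of shJUP to shNC was 1.69 for number 1, 0.466 for number 2 and 0.455 for number 3.

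Among the lysyl oxidases, LOX differed most of the 3 that were tested. LOX stood at 90.3, 192 and 75.1 CPM in shJUP 1 to 3, against 233, 256 and 263 CPM in shNC 1 to 3. No overlap was seen, although 76.6% of the control mean remained in shJUP 2, more than in shJUP 1 (36.0%) and shJUP 3 (30.0%). Its mean ± SD was 119 ± 64 CPM over the 3 shJUP and 250.5 ± 16 CPM over the 3 shNC libraries. The log2 fold change was -1.07 (SE 0.33), which passed neither edgeR (adjusted p = 0.420) nor DESeq2 (adjusted p = 0.0595) nor DESeq2 with the block (adjusted p = 0.0530). Without both number-2 libraries it was -1.58 in edgeR, a fit in which JUP itself stood at -1.66.

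LOXL2, which can also oxidize lysines of type IV collagen, was the most abundant member per kilobase of transcript in every library. Per kilobase of coding sequence LOX was above it in shNC 2 (204 against 164 CPM per kilobase). LOXL2 stood at 445, 536 and 296 CPM in shJUP 1 to 3, against 541, 381 and 670 CPM in shNC 1 to 3. The groups overlapped, with shJUP 2 above shNC 2 and shJUP 3 the lowest of the 6. The log2 fold change was -0.32 (SE 0.27, edgeR adjusted p = 0.703). Estimated counts were not whole for LOXL2 in any library, nor for LOXL3 outside shJUP 3, so some of their reads were divided between loci and their levels are less certain.

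LOXL1, a lysyl oxidase tied to elastic fibres, followed the library number more than the group. It stood at 10.7, 19.0 and 9.19 CPM in shJUP 1 to 3, against 13.0, 23.1 and 13.7 CPM in shNC 1 to 3. The number-2 libraries were the highest of both groups. Within each number the shJUP library was lower, with ratios of 0.821, 0.822 and 0.673 for numbers 1 to 3. The edgeR log2 fold change was -0.36 (SE 0.34) without the block and -0.38 (SE 0.12) with it, and neither fit called the gene (adjusted p = 0.733 and 0.201).

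LOXL3 and LOXL4 were close to silent and did not pass the filter on low counts. LOXL3 was estimated at 9.25, 6.36 and 12 counts in shJUP 1 to 3, against 11.8, 6.28 and 5.41 counts in shNC 1 to 3, and no order is visible in these values. LOXL4 had 19, 22 and 7 counts in shJUP 1 to 3, against 5, 9 and 5 counts in shNC 1 to 3. The shJUP library of LOXL4 was the higher of each pair, with ratios of 3.84 (95% counting interval 1.39 to 13.2), 2.46 (1.09 to 6.06) and 1.37 (0.373 to 5.46) for numbers 1 to 3. With so few counts shJUP 3 overlapped the controls, at 0.372 CPM against 0.272 to 0.478 CPM. LOXL4 was the only lysyl oxidase of the 5 whose shJUP library was higher in each of the 3 numbers.

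**Figure D2:**
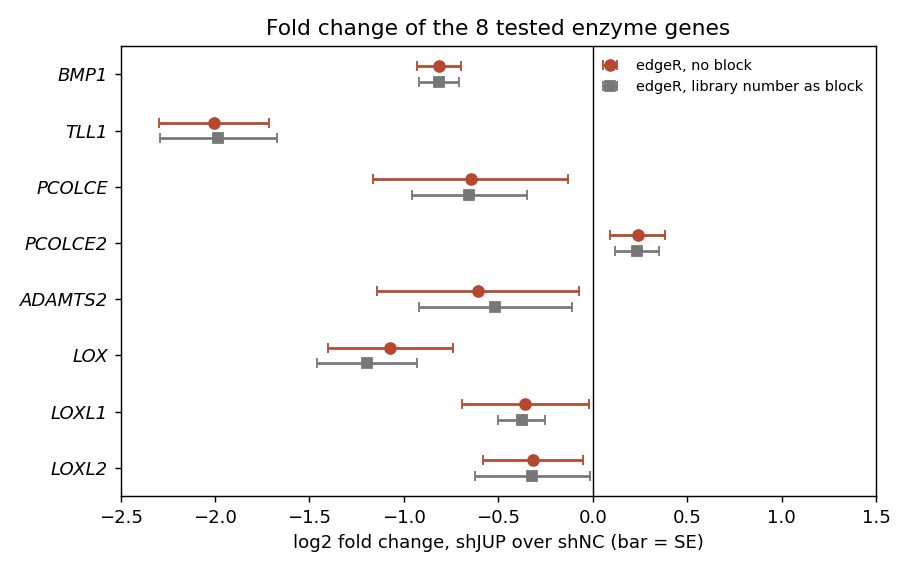
Log2 fold change of shJUP over shNC for the 8 tested enzyme genes, from edgeR without and with the library number as a block; bars are standard errors. TLL1 is lowest at -2.0, LOX at -1.07 and BMP1 at -0.81, and PCOLCE2 at 0.24 is the only one above 0.

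Counted over the set, 7 of the 8 tested members had a log2 fold change below 0, where 51.4% of all tested genes did. The groups did not overlap, with every shJUP library lower, for 3 of the 8 (BMP1, TLL1 and LOX), a pattern seen in 8.65% of all tested genes. No tested member had every shJUP library higher (8.39% of all tested genes). PCOLCE2 alone of the 8 was above its control in all 3 numbers, as were 21.3% of tested genes. The shJUP library was below the control of its number in all 3 numbers for 5 of the 8 (BMP1, TLL1, PCOLCE, LOX and LOXL1), against 22.5% of tested genes. The median log2 fold change of the 8 was -0.63, beside -0.01 over all tested genes. For the same 8 it was -0.33 without shNC 2, with 6 below 0, and -0.36 without shJUP 3.

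Levels per length differed widely between the members. LOXL2 averaged 120 ± 34 CPM per kilobase of its longest transcript in shJUP and 149 ± 41 in shNC (SD, n = 3 each). LOX averaged 23.3 ± 13 in shJUP and 49.1 ± 3.1 in shNC on this scale, and BMP1 15.9 ± 1.5 in shJUP and 28.0 ± 2.3 in shNC. Below them came PCOLCE2 (7.87 ± 0.79 in shJUP and 6.68 ± 0.52 in shNC) and LOXL1 (4.65 ± 1.9 in shJUP and 5.96 ± 2.0 in shNC). TLL1 averaged 0.860 ± 0.22 in shJUP and 3.45 ± 1.0 in shNC, which put it below ADAMTS2 (0.959 ± 0.40) in shJUP and above it (1.46 ± 1.0) in shNC. In shJUP the values of TLL1 and ADAMTS2 overlapped. Per kilobase of coding sequence TLL1 averaged above ADAMTS2 in shJUP as well (1.86 against 1.78). PCOLCE, LOXL3 and LOXL4 stayed at or below 1.16 in every control. In the controls the neighbours PCOLCE2 and LOXL1, TLL1 and ADAMTS2, ADAMTS2 and PCOLCE, and LOXL3 and LOXL4 overlapped. The order of the 10 control means was the same per kilobase of coding sequence, but on that scale LOXL2 (164 to 289) and LOX (186 to 210.2) overlapped in the controls.

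The share of TLL1 in the sum of BMP1 and TLL1 did not overlap between groups, nor did that of LOX among the lysyl oxidases. TLL1 made up 5.39%, 5.73% and 4.10% of the summed BMP1 and TLL1 transcripts per length in shJUP 1 to 3, against 11.5%, 8.02% and 13.1% in shNC 1 to 3. The lowest control, shNC 2, was above all 3 shJUP libraries. TLL2, a tolloid-like protease outside the set, is not in this sum. It stood at 3.31 to 3.50 CPM in shJUP and 1.38 to 4.09 CPM in shNC (edgeR log2 fold change 0.35). LOX made up 12.0%, 19.2% and 14.5% of lysyl oxidase transcripts per length in shJUP 1 to 3, against 22.5%, 30.2% and 21.0% in shNC 1 to 3. Per kilobase of coding sequence the LOX shares were 26.6%, 38.7% and 31.1% in shJUP, against 43.6%, 53.5% and 41.5% in shNC. LOXL2 took most of the remainder, at 77.1% to 85.1% in shJUP and 64.7% to 76.9% in shNC per length of transcript. The summed level of the family overlapped between groups, at 102 to 196 CPM per kilobase in shJUP and 166 to 245 in shNC.

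**Figure D3:**
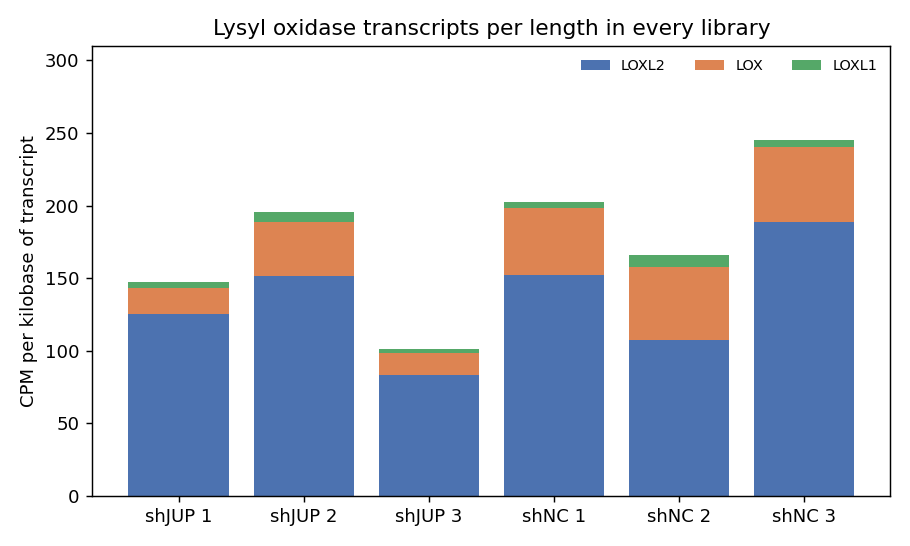
Summed level of LOXL2, LOX and LOXL1 in every library, in CPM per kilobase of the longest transcript, as stacked bars from 0; LOXL3 and LOXL4 are left out because they are too low to be seen. The LOX segment is shorter in each shJUP library than in each shNC library, whereas the LOXL2 segment overlaps between the groups.

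The 3 same-number ratios of several members lay in the order that JUP showed. The JUP ratio of shJUP to shNC for numbers 3, 1 and 2 was 0.243 (0.219 to 0.269), 0.384 (0.352 to 0.419) and 0.705 (0.663 to 0.750), with 95% counting intervals in parentheses. LOX had ratios of 0.286 (0.269 to 0.303), 0.387 (0.366 to 0.410) and 0.751 (0.719 to 0.785) for numbers 3, 1 and 2, and none of these intervals overlapped. For TLL1 they were 0.153 (0.119 to 0.194), 0.224 (0.180 to 0.277) and 0.466 (0.377 to 0.573), where the first 2 intervals overlap. LOXL2 spanned 0.442, 0.824 and 1.41 for numbers 3, 1 and 2. BMP1 had 0.539, 0.510 and 0.668, with numbers 3 and 1 the other way round and their intervals overlapping. In all, 5 of the 8 tested members had the order of JUP, although for LOXL1 and PCOLCE2 the intervals overlapped. That order was seen in 14.2% of all tested genes. Of the members lower in shJUP in all 3 numbers, TLL1, LOX and LOXL1 had it, and BMP1 and PCOLCE did not. Among the 3573 tested genes lower in all 3 numbers, 17.1% had it. LOXL2 and PCOLCE2 had the order of JUP but were not lower in all 3 numbers, and PCOLCE2 was higher in each. The ratios rest on 3 pairs, and no test was run on their order. With group means subtracted over all tested genes, shJUP 1 and shJUP 3 did not correlate most with the control of their own number. The order of numbers 1 and 3 is limited by this.

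**Figure D4:**
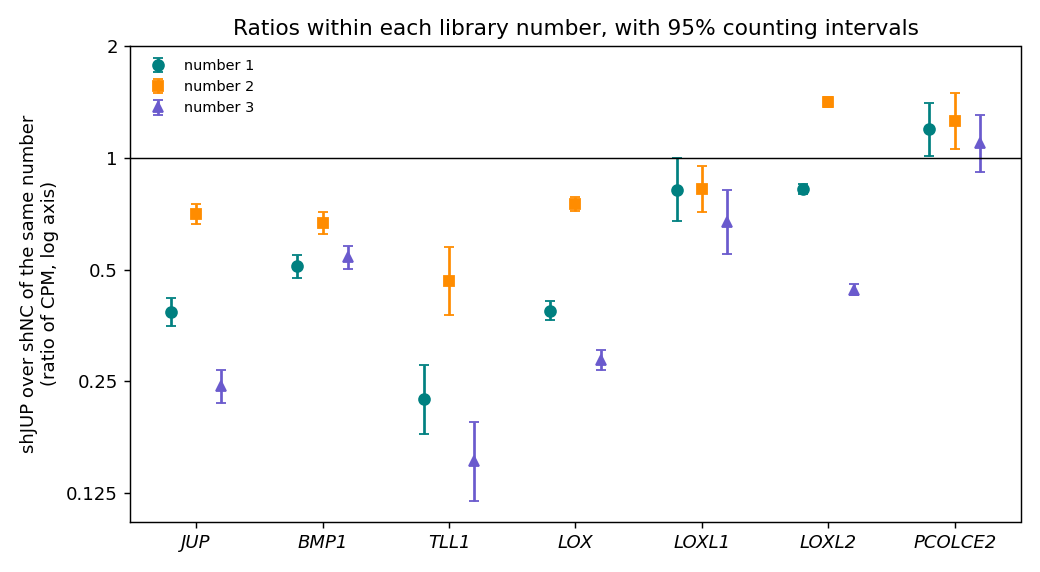
Ratio of shJUP to shNC of the same library number for JUP and 6 enzyme genes, on a log axis, with 95% counting intervals. For JUP, TLL1, LOX and LOXL2 number 3 is lowest and number 2 highest. PCOLCE2 lies above 1 for every number, but its interval for number 3 reaches below 1.

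The genes around these enzymes in the collagen pathway were read from 5 lists. The fibrillar collagen chains include substrates of the tolloid proteases and of ADAMTS2, though not every chain is cut by both. Of 11 such chains 8 were tested, and all 8 had a log2 fold change below 0 (median -1.01, beside -0.01 over all tested genes). That count and median rest on the control shNC 2: without it 3 of the 8 were below 0, 5 at or above 0, and the median was 0.02, whereas without shJUP 1 all 8 were below 0 with a median of -2.53. COL1A1 (log2 1.16), COL3A1 (2.52) and COL11A1 (2.80) were then above 0, while COL5A1 (-1.77) and COL11A2 (-1.12) were still below 0. Over all 6 libraries edgeR called 0 of the 8, and DESeq2 called COL5A1 lower, in a fit that called 0.524% of all genes lower. With the block DESeq2 called COL5A1 and COL5A2 lower, where 2.91% of all genes were called lower. COL5A1, a chain of type V collagen, stood at 266, 226 and 76.1 CPM in shJUP 1 to 3, against 609, 624 and 682 CPM in shNC 1 to 3, with no overlap (log2 -1.75, SE 0.41, edgeR adjusted p = 0.381). COL5A2, its partner chain, averaged 140 ± 42 CPM in shJUP and 217 ± 100 CPM in shNC (log2 -0.63, SE 0.35) and overlapped. COL11A2, a type XI chain, averaged 3.09 ± 0.47 CPM in shJUP and 6.26 ± 1.7 CPM in shNC (log2 -1.02, SE 0.27). COL3A1, the type III chain, ranged from 0.0531 to 5.58 CPM in shJUP and from 0.0553 to 46.0 CPM in shNC (log2 -3.02, SE 2.02 over all 6 libraries).

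Of 17 enzymes and chaperones that act on collagen inside the cell, 15 were tested and all 15 had a log2 fold change below 0, with a median of -0.37. The groups did not overlap for 7 of the 15, each with every shJUP library lower, as in 8.65% of all tested genes. edgeR called 0 of these genes, and DESeq2 called P3H4 lower, in a fit that called 0.524% of all genes lower. With the block DESeq2 called P3H4 and PLOD1 lower, where 2.91% of all genes were called lower. PLOD1, a lysyl hydroxylase whose products are substrates for crosslinking, stood at 268, 406 and 231 CPM in shJUP 1 to 3, against 465, 528 and 537 CPM in shNC 1 to 3 (log2 -0.76, SE 0.21). P3H4, a partner of the prolyl 3-hydroxylase complex, stood at 13.7, 16.9 and 10.6 CPM in shJUP 1 to 3, against 24.4, 30.3 and 23.3 CPM in shNC 1 to 3 (log2 -0.92, SE 0.20, DESeq2 adjusted p = 0.0115). COLGALT1, a collagen galactosyltransferase, had a log2 fold change of -0.37 (SE 0.12), and CRTAP, another member of the 3-hydroxylase complex, of -0.31 (SE 0.11). With 1 library left out, 13 to 15 of the 15 were below 0 and the median ranged from -0.47 to -0.27. Over all 6 libraries P4HA2 (-0.05) and PLOD3 (-0.03) were close to 0.

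Of 5 other procollagen proteases 3 were tested, all with a log2 fold change above 0 (median 0.35, but 0.03 without shJUP 1 and 0.65 without shJUP 3; 2 were above 0 without shJUP 1, shJUP 2 or shNC 1), and neither edgeR nor DESeq2 called any. TLL2, the remaining tolloid-like protease, stood at 3.46, 3.31 and 3.50 CPM in shJUP 1 to 3, against 4.09, 1.38 and 2.61 CPM in shNC 1 to 3 (log2 0.35, SE 0.39). ADAMTS3, a further N-protease, averaged 4.38 ± 2.2 CPM in shJUP and 3.16 ± 0.53 CPM in shNC (log2 0.47, SE 0.38). Both overlapped between groups.

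Of 12 other substrates and binding partners of the tolloid proteases, 9 were tested, 8 below 0 and 1 above (median -0.45, but -0.17 without shNC 2 and -0.22 without shJUP 3). edgeR called 0 of these, and DESeq2 called BGN lower, in a fit that called 0.524% of all genes lower. BGN, a proteoglycan cleaved by BMP1, had 0 counts in each shJUP library, against 45, 88 and 30 counts in shNC 1 to 3. Set against 3 counts over the shJUP group it was at least 54.2-fold lower, and the median of the list is the same with BGN at that bound. With the block DESeq2 called COL7A1 and POSTN lower, where 2.91% of all genes were called lower, and gave BGN no adjusted p. COL7A1, the anchoring fibril collagen, stood at 153, 126 and 87.5 CPM in shJUP 1 to 3, against 198, 191 and 179 CPM in shNC 1 to 3 (log2 -0.63, SE 0.20). POSTN, named after its values were seen, was at 44.2 CPM in shNC 2 and at most 1.52 CPM in the other 5 libraries. LTBP1 (log2 -0.45, SE 0.33) and GDF11 (log2 -0.22, SE 0.18) overlapped between groups.

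Of 9 partners of the lysyl oxidases and copper carriers, 7 were tested, 5 below 0 and 2 above (median -0.20, but -0.01 without shNC 2, -0.40 without shJUP 2 and -0.30 without shNC 1). FBN1, the scaffold of elastic fibres, was the one gene of this list called lower by DESeq2 (adjusted p = 0.00403, and 5.55e-05 with the block) and was not called by edgeR (adjusted p = 0.331). DESeq2 called 0.524% of all genes lower without the block and 2.91% with it. FBN1 stood at 383, 393 and 375 CPM in shJUP 1 to 3, against 766, 513 and 701 CPM in shNC 1 to 3 (log2 -0.78, SE 0.16). ATP7A, the copper pump that loads lysyl oxidases, averaged 20.7 ± 4.1 CPM in shJUP and 25.0 ± 2.6 CPM in shNC (log2 -0.27, SE 0.17). CCS, a copper chaperone, had a log2 fold change of -0.29 (SE 0.21) and FBLN5, an elastic fibre protein, of 0.57 (SE 0.34). Neither edgeR nor DESeq2 called these 3. ELN, the elastin gene, had at most 0.0558 CPM in a library.

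**Figure D5:**
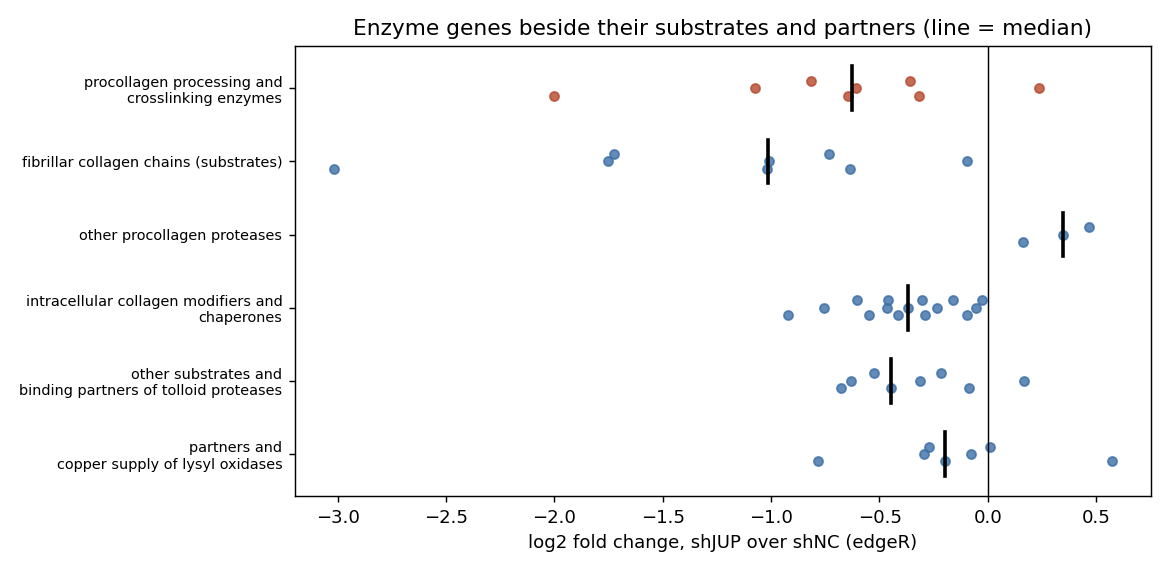
Log2 fold change of shJUP over shNC in edgeR for the 8 tested enzyme genes and for the tested genes of 5 lists of the collagen pathway, with a line at each median; BGN lies beyond the axis and counts in the median of its list. All 8 fibrillar collagen chains lie left of 0 over the 6 libraries, 5 of which are not below 0 without shNC 2. The 15 intracellular modifiers also lie left of 0 (13 to 15 with 1 library left out), and the 3 other procollagen proteases right of it (2 or 3 with 1 library left out).

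By the level across the 6 libraries, TLL1 was most like NREP, a gene linked to TGF-beta signalling and myofibroblasts. Likeness was the root mean square difference of centred log2(CPM + 1), computed for 11370 genes with a mean of at least 5 CPM. It was 0.327 for NREP, 0.370 for the stress-induced NUPR1, 0.389 for HHIP, which binds hedgehog ligands, 0.399 for STARD4-AS1 and 0.405 for the gelatinase MMP2. Since they were picked for this profile, their direction is that of TLL1 by construction. As for TLL1, shNC 2 was the lowest control for NREP, NUPR1, HHIP and STARD4-AS1, whereas for MMP2 it was the highest. NUPR1 stood at 13.5, 6.11 and 14.8 CPM in shNC 1 to 3. STARD4-AS1 is an antisense RNA and uncertain, since the use of strand in counting is not known.

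Markers of fibroblasts, endothelium and leukocytes gave no sum that separated the groups. Of 10 fibroblast markers 7 reached 1 CPM in some library, led by COL1A1 (8.76 to 401 CPM) and COL6A3 (3.54 to 251 CPM). COL1A1 and COL3A1 are also on the list of collagen chains, and PDPN stood at 15.9 to 22.4 CPM. The summed level of the fibroblast markers ranged from 40.6 to 535 CPM in shJUP and from 61.8 to 586 CPM in shNC, and PDGFRB, THY1 and FAP stayed at or below 0.584 CPM. LUM and DCN, named after their values were seen, were highest in the number-2 library of each group. LUM stood at 6.67 CPM in shJUP 2 and 15.5 CPM in shNC 2, and DCN at 5.87 and 7.54 CPM. Of 8 endothelial markers 5 reached 1 CPM, with sums of 10.5 to 13.0 CPM in shJUP and 7.13 to 16.7 CPM in shNC, and EMCN was at 0 in every library. KDR was higher in every shJUP library (8.59 to 10.8 CPM) than in every shNC library (5.06 to 7.70 CPM), with a log2 fold change of 0.63 (SE 0.22, edgeR adjusted p = 0.449). Of 8 leukocyte markers CD68 alone reached 1 CPM (up to 35.8 CPM), PTPRC had at most 0.0533 CPM and CD3E was at 0. The part of other cells in the levels of the enzymes was not tested.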

How the data were processed

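Poly(A)-selected RNA of 6 SKOV3 cultures was sequenced on a DNBSEQ instrument, per the labels' protocols. The authors deposited estimated counts per Ensembl gene, made from the reads with no scaling between libraries. The submitters' processing notes name STAR 2.7.9a, RSEM 1.3.3, edgeR 3.32.1 and DESeq2 1.26.0 without their roles. No source used here gives the genome build, the annotation or the strand setting. Of 60695 rows, 31 without a gene ID were left out. Counts were rounded (33.9% to 36.3% of those above 0 were not whole). Replicates of a group differed by a chi-square per gene of 9.26 to 55.0, and all were kept as separate samples.

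The fit across all genes used edgeR 4.0.16 in R 4.3.3 (filterByExpr, 15867 genes, TMM factors 0.978 to 1.028, quasi-likelihood test, two-sided, Benjamini-Hochberg, threshold 0.05). SE was derived from the fold change and the F statistic. DESeq2 1.42.0 and limma-voom (limma 3.58.1) were alternatives, beside other scalings, filters, the block and left-out libraries. The fits were also run on simulated counts drawn with no effect of the library number, and no result here rests on that run. Lengths are those of GENCODE 29. Counting intervals (exact, 95%) cover counting error only.

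The numbers 1 to 3 in the labels, whose meaning is not stated there, were checked as pairs. After subtracting group means, same-number libraries correlated at 0.14, 0.51 and 0.20, all above 0. The pairing is uneven, since shJUP 3 and shNC 1 correlated at 0.39 and shJUP 1 and shNC 3 at 0.15. Only for shJUP 2 was the control of the same number the one with the highest correlation. The main fit did not use the numbers. The same-number ratios and the fits with the block treated them as pairs, and the blocked value is given where it changes a call.

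The members and lists were chosen with earlier results of these data known. Named genes are JUP and all members, up to 4 genes of each pathway list with the smallest edgeR p-values and a mean of at least 1 CPM, up to 4 markers of each cell type reaching 10 CPM, and the 5 genes most like TLL1. Further genes named as the content of a small count, or as levels at the edge of a list (EPCAM, MSLN, MUC16, P4HA2, PLOD3, ELN, POSTN and low markers), were chosen after their values were seen.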

Additional observations from a re-analysis of the deposited data

How the results depend on the processing

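The edgeR test called 0 genes and 0 of the 8 tested members, and did so with RLE, upper-quartile or no scaling, the stricter filter, limma-voom, and each library left out in turn (0 to 0 genes and 0 to 0 members). Genes called were 5 without the filter, 179 with DESeq2, 1 with the replicate block, 696 with DESeq2 and the replicate block, 49 without both number-2 libraries in edgeR and 643 without them in DESeq2. Members called were 1 without the filter (TLL1), 2 with DESeq2, 2 with DESeq2 and the replicate block, 3 without both number-2 libraries in edgeR and 4 without them in DESeq2 (BMP1, TLL1, LOX and LOXL2), all lower. Within edgeR the replicate block called 0 members. TLL1, BMP1 and LOX stayed lower in each of the 18 settings, and with 1 library left out their log2 fold changes ranged from -2.23 to -1.82, -0.89 to -0.75 and -1.60 to -0.83. ADAMTS2 turned to 0.10 without shNC 2, and its lowest value was -0.94 without shNC 1. LOXL1 ranged from -0.74 without shJUP 2 to -0.04 without shNC 2, and PCOLCE from -1.18 to -0.15 in the same 2 settings. LOXL2 ranged from -0.52 without shJUP 2 to -0.11 without shNC 3 and was at -0.70 without both number-2 libraries in DESeq2, and JUP ranged from -1.80 without shJUP 2 to -0.76 without shJUP 3. The medians of the members and of the gene lists with libraries left out, given beside them, were computed after the data were seen. The cause was not tested. The depth limits PCOLCE, LOXL3 and LOXL4, which had at most 37 counts in a library.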

Other observations

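Several substrates of the enzymes varied between libraries of 1 group by far more than the enzymes did. COL1A1, a type I collagen chain, stood at 253, 32.3 and 8.76 CPM in shJUP 1 to 3, against 38.3, 401 and 49.3 CPM in shNC 1 to 3. Its partner chain COL1A2 stood at 7.98, 1.55 and 0.372 CPM in shJUP 1 to 3, against 2.60, 26.1 and 3.97 CPM in shNC 1 to 3. COL11A1 showed 17.6, 1.60 and 0.425 CPM in shJUP 1 to 3, against 0.332, 37.6 and 1.52 CPM in shNC 1 to 3. The highest library of each group was the same for the 3 chains, shJUP 1 and shNC 2. FN1, which encodes fibronectin, shared this, at 3952, 2111 and 650.0 CPM in shJUP 1 to 3, against 861, 5835 and 1645 CPM in shNC 1 to 3. ADAMTS2 was also highest in shNC 2, while in shJUP it was as high in number 2 as in number 1. COL1A2, COL11A1 and FN1 were named after their values were seen, and no test was run on this pattern.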
